A study of Mus musculus with 12 samples.

Results

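Polycomb repressive complex 2 (PRC2) was followed through the 10 genes of its subunits and cofactors, Ezh1, Ezh2, Eed, Suz12, Rbbp4, Rbbp7, Mtf2, Phf19, Jarid2 and Aebp2, among the 30399 genes of a poly-A RNA sequencing table of mouse lung tumors and normal mouse lung. The genes were chosen by name as parts of the complex, with earlier results of these data known. All 10 were in the table and were tested. The 12 samples fall into 5 labelled normal lung and 7 labelled tumor. The tumors come from a lung cancer model made without viruses by CRISPR/Cas9, a nuclease whose guided cuts are repaired with small errors that can disable a gene. The labels give neither genotype, strain, age, sex nor the genes cut in each tumor, and do not say whether the normal lungs received any agent.

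PRC2 attaches methyl groups to lysine 27 of histone H3, a mark that keeps developmental genes silent. Ezh2 or its close relative Ezh1 provides the catalytic site, and neither works without Eed and Suz12. Rbbp4 and Rbbp7 are histone-binding proteins that PRC2 shares with other chromatin complexes. The core joins either a Polycomb-like protein such as Mtf2 or Phf19 (the form called PRC2.1) or Jarid2 and Aebp2 (PRC2.2). Ezh2 is known as the form of dividing cells and Ezh1 as the form that remains in resting tissue, and EZH2 is abundant in small cell lung carcinoma, a neuroendocrine cancer.

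Values are read counts divided by a size factor per sample, called normalized counts here. Reads worked back from these values and summed over genes were 11126432 to 17032234 per normal lung and 13093843 to 24217633 per tumor. At these depths 3 reads are worth at most 4.85 normalized counts (normal lung) or 3.57 (tumor), and the lowest value of any of the 10 genes in any sample was 98.7. Tumors 3 and 4 share the number 159 in their titles and tumors 5, 6 and 7 share 201. Titles of tumors 1 and 7 carry a word for trachea, those of tumors 3 to 6 a word for lung, and that of tumor 2 neither. The labels do not say that samples came from separate mice, so p-values measure the spread between these samples.

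Of the 10 PRC2 genes, 7 were higher in tumor, 1 was lower and 2 did not pass the test (limma on log2(value + 1), adjusted p under 0.05 over 23674 genes). Much of the transcriptome moved in this contrast, with 31.4% of tested genes higher and 30.1% lower. A log2 fold change of at least 1 was reached by 6 of the 7 higher genes and by the lower one, against 24.0% and 24.5% of tested genes. Every tumor lay above every normal lung for 7 PRC2 genes and below for 1, against 20.1% and 18.4% of tested genes. The median log2 fold change was 1.18 over the 10 genes and 0.04 over all genes tested.

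**Figure D1:**
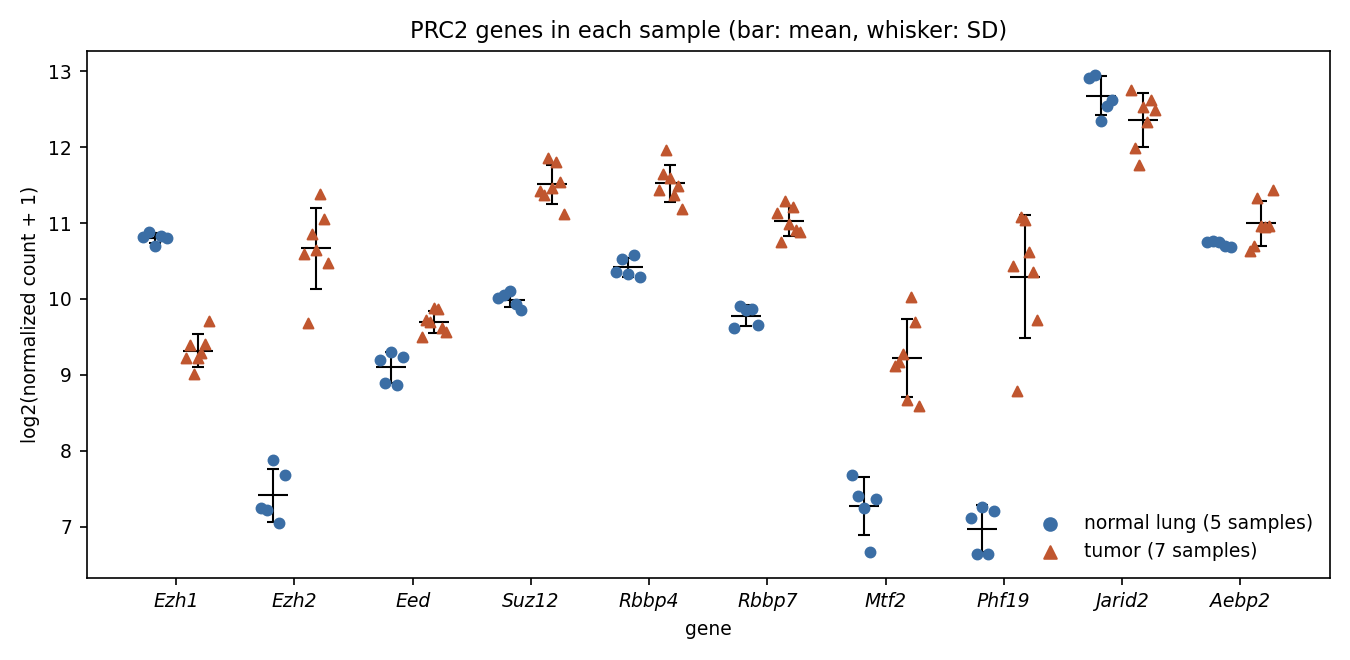
Normalized counts of the 10 PRC2 genes on a log2(value + 1) axis, with circles for the 5 normal lungs, triangles for the 7 tumors, bars for the mean and whiskers for the SD. Ezh1 is the gene whose tumors all sit below normal lung, and the groups overlap for Jarid2 and Aebp2.

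The catalytic pair moved in opposite directions. Ezh2 (ENSMUSG00000029687) stood at 151, 147, 234, 131 and 203 normalized counts in the 5 normal lungs, listed from 1 to 5. In tumors it ran from 823 (tumor 2) over a median of 1607 to 2656 (tumor 5). The lowest tumor was far above the highest normal lung, so the groups did not overlap. The mean went from 173 ± 43.5 (SD, n = 5) to 1717 ± 577 (SD, n = 7), 9.90 times as high, a log2 fold change of 3.26 (SE 0.26, 95% interval 2.70 to 3.81, adjusted p = 1.85e-07). This change was larger in size than that of 86.2% of tested genes.

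Ezh1 (ENSMUSG00000006920) had 1802, 1893, 1652, 1814 and 1777 normalized counts in the normal lungs. In tumors it ran from 516 (tumor 3) over a median of 624 to 833 (tumor 7), below every normal lung. Its mean was 644 ± 99.5 (SD, n = 7) in tumors, and the log2 fold change was -1.48 (SE 0.13, 95% interval -1.77 to -1.20, adjusted p = 5.53e-07). In bulk tissue, fewer cells of a type and less RNA per cell cannot be told apart, for this gene and the others.

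The makeup of the tissue differed along with these genes. All 6 leukocyte markers read here and 6 of 6 endothelial markers were lower in tumor, and so were 7 of 8 lung epithelial markers, Nkx2-1 not passing the test. Their summed normalized counts ran from 82190 to 162192 against 325 to 11179 (leukocytes), from 61987 to 72050 against 2441 to 7234 (endothelium), and from 289452 to 514575 against 5249 to 17503 (lung epithelium). Sftpa1 was at 0 in 1 tumor, Cldn18 in 2 and Cd3e in 3. All 8 neuroendocrine markers were higher, with sums of 113 to 161 in normal lung and 33542 to 128803 in tumors, and Dcx at 0 in all 5 normal lungs. The part of these shifts in the PRC2 values was not tested.

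Levels of the catalytic pair were compared per kilobase of annotated exons. The length used here and below is that of all annotated exons of a gene merged, not of the transcripts expressed. Orders, sums and ratios between genes depend on it, and only the Ezh2 to Ezh1 ratio was also taken without it. Normal lung held 240 ± 11.7 normalized counts of Ezh1 per kb and 26.0 ± 6.51 of Ezh2 (SD, n = 5), so Ezh1 was 6.33 to 12.4 times as high as Ezh2. In tumors Ezh1 stood at 86.5 ± 13.4 and Ezh2 at 257 ± 86.5 (SD, n = 7), with Ezh2 1.37 to 4.74 times as high. The order of the pair was thus turned in 7 of 7 tumors.

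The share of Ezh2 in the summed level of the pair was 8.53%, 7.98%, 13.6%, 7.46% and 11.3% in normal lungs 1 to 5. In tumors 1 to 7 it was 74.3%, 57.8%, 80.0%, 75.1%, 82.6%, 77.7% and 65.4%. Tumor 2 had the lowest share and tumor 5 the highest. The summed level itself changed less, from 266 ± 7.22 to 344 ± 84.1 per kb, and tumor 2 (213) lay below all 5 normal lungs (257 to 277) while the other 6 tumors lay above them.

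**Figure D2:**
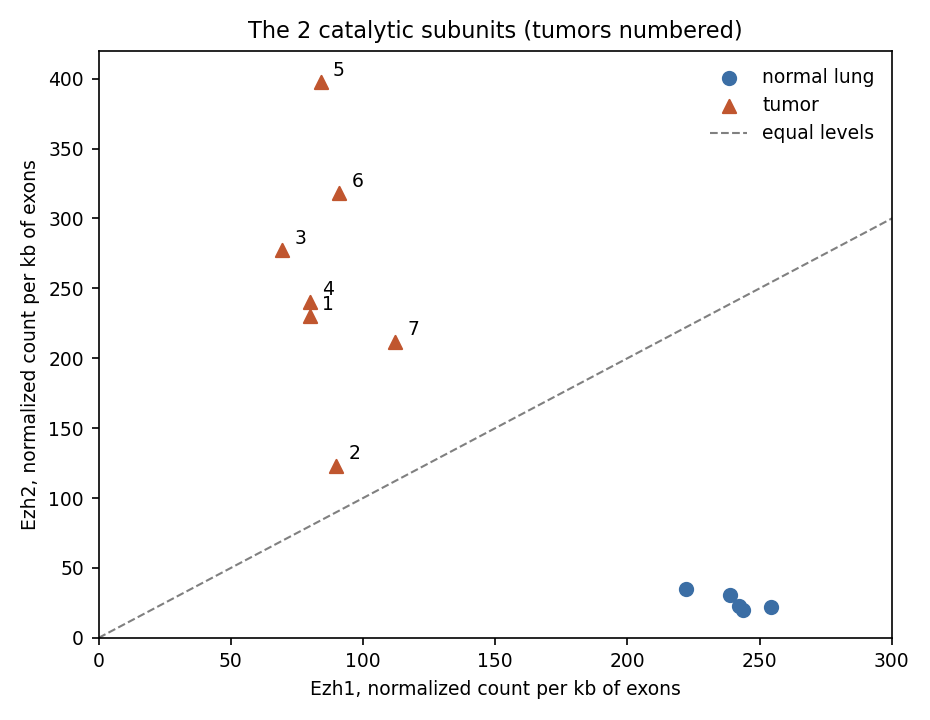
Level of Ezh2 (vertical) against Ezh1 (horizontal) in each sample, both in normalized counts per kb of exons, with circles for normal lung, numbered triangles for tumors and a dashed line at equal levels. All 5 normal lungs lie under the line and all 7 tumors above it, tumor 2 closest to it.

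Promoter letters were read for the 10 genes because E2F transcription factors, restrained by the retinoblastoma protein, are known activators of cell cycle genes, with EZH2 among their described targets. Windows of 300 bases, 250 before to 50 after each start, came from RefSeq (GRCm38.p6), in which all 10 genes matched. An E2F octamer (TTTCCCGC, TTTCGCGC, TTTGCCGC or TTTGGCGC, either strand) was found for Ezh2, Phf19 and Suz12, which is 3 of 10 PRC2 genes against 2.60% of 27025 genes. The octamer, in capitals below, begins 3 bases after the start in Ezh2, 208 before it in Phf19 and 219 before it in Suz12. Ezh2 (chr6:47595004-47595087, minus strand), Phf19 (chr2:34914161-34914226, minus strand) and Suz12 (chr11:79992856-79992910, plus strand) are shown because they carry the match. Ezh1 (chr11:101226437-101226520, minus strand), whose window holds none of the octamers, is shown around its start for comparison.
Ezh2: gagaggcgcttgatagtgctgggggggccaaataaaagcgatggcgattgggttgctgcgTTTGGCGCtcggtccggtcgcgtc
Phf19: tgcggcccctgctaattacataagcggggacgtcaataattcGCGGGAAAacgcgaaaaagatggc
Suz12: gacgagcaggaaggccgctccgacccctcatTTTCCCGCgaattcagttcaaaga
Ezh1: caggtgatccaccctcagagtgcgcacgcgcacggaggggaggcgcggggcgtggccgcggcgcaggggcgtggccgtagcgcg

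The Phf19 match is on the opposite strand, so its capitals read as the reverse complement of TTTCCCGC. The hexamer TTTGAA, the core of the cell cycle homology region, was found on either strand for Eed, Suz12, Mtf2 and Aebp2, 4 of 10 against 20.2% of genes, and overlapped no octamer in Suz12, which holds both. A match of letters is a description and not a bound site. Of the 3 genes with an octamer, Ezh2 and Phf19 had the largest fold changes of the 10 and Suz12 the fourth largest. Mtf2, without an octamer, changed more than Suz12 (log2 fold change 1.95 against 1.52). A relation between octamer and fold change was not tested.

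Among the core subunits, Suz12 (ENSMUSG00000017548), the scaffold to which the accessory proteins bind, had 1029, 1060, 1097, 975 and 921 normalized counts in normal lung. It ran from 2218 (tumor 7) over a median of 2826 to 3695 (tumor 3) in tumors. The groups were far apart, and the difference on the log2 scale was 1.52 (SE 0.14, adjusted p = 7.24e-07).

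Eed (ENSMUSG00000030619), which binds the methyl mark that the complex leaves, changed least of the 7 higher genes. Its normal lungs had 587, 474, 631, 464 and 601 normalized counts, and its tumors ran from 719 (tumor 1) over a median of 825 to 940 (tumor 4). The groups did not overlap, but the closest tumor and normal lung were near each other. The log2 fold change was 0.59 (SE 0.14, 95% interval 0.30 to 0.89, adjusted p = 0.00197). With the mean level of 4 Y-linked genes as a covariate it was 0.45 (adjusted p = 0.0534) and no longer passed. The summed Y-linked level was 2765 to 3113 in 4 normal lungs and 2536 in tumor 1, but 0 in normal lung 3 and 0 to 8.08 in the other tumors.

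Per kb, Suz12 was 1.45 ± 0.22 times Eed over the normal lungs (SD, n = 5), with a range of 1.19 to 1.73. Over the tumors the factor was 2.76 ± 0.44 (SD, n = 7), with a range of 2.26 to 3.47. Ezh2 went from 0.179 ± 0.026 to 1.19 ± 0.36 times Eed. The ranges of both ratios were separate between the groups.

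Both histone-binding subunits were higher in tumor. Rbbp4 (ENSMUSG00000057236) had 1313, 1469, 1287, 1526 and 1252 normalized counts in normal lung and ran from 2321 (tumor 7) over a median of 2861 to 3984 (tumor 3) in tumors. Rbbp7 (ENSMUSG00000031353) had 787, 956, 925, 935 and 802, and then from 1719 (tumor 2) over a median of 2035 to 2502 (tumor 3). Neither gene's groups overlapped. The log2 fold changes were 1.11 (SE 0.14, adjusted p = 1.30e-05) and 1.24 (SE 0.13, adjusted p = 2.42e-06), near the middle of all tested genes in size (percentiles 50.5 and 54.8). Rbbp7 was 1.94 ± 0.14 times Rbbp4 per kb in normal lung and 2.15 ± 0.38 times in tumors, ranges that overlapped.

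Because Rbbp4 and Rbbp7 also serve the NuRD and Sin3 deacetylase complexes and the chromatin assembly factor CAF-1, 17 genes of those complexes were read beside them. Of these, 11 were higher, 2 lower and 4 not called, against 31.4% higher and 30.1% lower of all tested genes. Their median log2 fold change was 0.64. The largest changes were in the CAF-1 subunits Chaf1b (4.31) and Chaf1a (3.37), which deposit histones behind replication forks. Mbd2, a methyl-DNA binding subunit of NuRD, fell by 1.11 on the log2 scale. The other lower gene was Sap18, at -0.51. The lower count was 1 without normal lung 2, without normal lung 4, without the trachea-titled tumors, with the Y-linked covariate and with equal totals.

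Both Polycomb-like cofactors of PRC2.1 were higher in tumor, Phf19 by more than Mtf2. Phf19 (ENSMUSG00000026873), which binds methylated lysine 36 of histone H3 and guides PRC2 to chromatin, had 138, 98.9, 152, 98.7 and 147 normalized counts in normal lung. In tumors it ran from 441 (tumor 2) over a median of 1381 to 2167 (tumor 3), with tumor 4 close behind at 2110. Its mean rose from 127 ± 26.1 (SD, n = 5) to 1404 ± 627 (SD, n = 7), 11.1 times as high. The log2 fold change was 3.32 (SE 0.35, 95% interval 2.57 to 4.07, adjusted p = 2.74e-06), the largest of the 10 genes, and its interval overlapped that of Ezh2.

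Mtf2 (ENSMUSG00000029267), which binds DNA of unmethylated CpG islands, had 204, 169, 150, 100 and 164 normalized counts in normal lung. It ran from 384 (tumor 7) over a median of 577 to 1041 (tumor 5) in tumors, above every normal lung. The log2 fold change was 1.95 (SE 0.26, adjusted p = 2.85e-05). Per kb, the share of Phf19 in the pair was 47.9% ± 6.0 over the normal lungs (SD, n = 5) and 69.2% ± 12.8 over the tumors (SD, n = 7). Tumor 2 was the exception at 46.4%, inside the normal range of 39.9% to 53.3%, and the other 6 tumors lay above that range.

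The cofactors of PRC2.2 did not pass the test. Jarid2 (ENSMUSG00000038518), a catalytically inactive relative of the histone demethylases, had 7717, 7935, 5186, 5967 and 6318 normalized counts in normal lung. In tumors it ran from 3491 (tumor 3) over a median of 5742 to 6880 (tumor 1). The groups overlapped, with 3 tumors below the lowest normal lung and none above the highest. The log2 difference was -0.32 (SE 0.18, 95% interval -0.72 to 0.07, adjusted p = 0.144). Its size depended on the setting, at -0.05 with quantile normalization, -0.12 with equal totals and -0.03 with the Y-linked covariate. With edgeR's TMM scaling it was -0.14, but that run also left out tumor 3, the lowest tumor for Jarid2. The main fit without tumor 3 gave -0.22.

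Aebp2 (ENSMUSG00000030232), a zinc finger protein that stabilizes the complex, had 1724, 1730, 1720, 1659 and 1642 normalized counts in normal lung, a narrow range. The tumors ran from 1586 (tumor 1) over a median of 1992 to 2770 (tumor 7), and 5 lay above all normal lungs and 1 below. The log2 difference was 0.27 (SE 0.15, 95% interval -0.05 to 0.59, adjusted p = 0.129). With all libraries scaled to the same total it was 0.48 (adjusted p = 0.0104) and passed. That scaling moved the median of all tested genes from 0.04 to 0.23. The difference was 0.17 with same-numbered tumors averaged and 0.12 with the Y-linked covariate.

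Set against each other per kb, Jarid2 plus Aebp2 were 12.5 to 21.1 times Mtf2 plus Phf19 in normal lung (mean 16.6 ± 3.77, SD, n = 5). In tumors the factor was 1.15 to 3.72 (2.22 ± 0.92, SD, n = 7). Tumor 3 was lowest and tumor 7 highest. These are transcript proportions of 4 genes, and the assembled complexes were not measured. The PRC2.1 side is incomplete: Phf1, whose count was near 0 in this table, and further PRC2.1 genes given below, such as Epop and Lcorl, are not in it.

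Ordered by level per kb, normal lung ran from Jarid2 (682) over Rbbp7 (303), Ezh1 (240), Suz12 (206), Aebp2 (172), Rbbp4 (157), Eed (144.1), Mtf2 (27.6) and Ezh2 (26.0) to Phf19 (25.2). Neighbours whose ranges over the 5 samples overlapped were Aebp2 and Rbbp4, Rbbp4 and Eed, Mtf2 and Ezh2, and Ezh2 and Phf19. In tumors the order was Rbbp7 (721), Suz12 (598), Jarid2 (552), Rbbp4 (341), Phf19 (279), Ezh2 (257), Eed (217), Aebp2 (211), Mtf2 (110) and Ezh1 (86.5). All neighbouring ranges overlapped there, although Rbbp7 exceeded Suz12 and Aebp2 exceeded Mtf2 in 7 of 7 tumors. Ezh1 moved from the third place to the last.

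The tumors differed among themselves most in Phf19, whose log2 SD was 0.81, followed by Ezh2 (0.53) and Mtf2 (0.52). Eed (0.15), Rbbp7 (0.20) and Ezh1 (0.21) varied least. Tumor 3 had the highest value for Suz12, Rbbp4, Rbbp7 and Phf19, and tumor 5 for Ezh2 and Mtf2. Tumor 2 had the lowest value for Ezh2, Rbbp7 and Phf19. Tumor 7 had the lowest for Suz12, Rbbp4 and Mtf2 and the highest for Ezh1 and Aebp2.

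**Figure D3:**
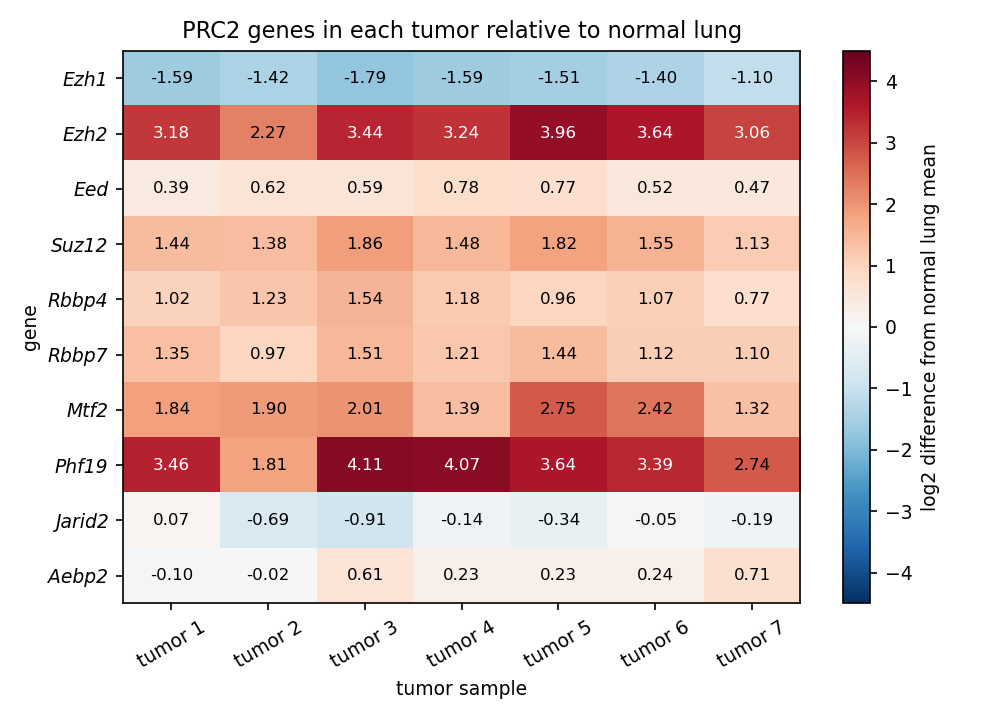
Log2 difference of each tumor (columns) from the mean of the 5 normal lungs for each PRC2 gene (rows), with red above and blue below normal lung. The Ezh2 row runs from 2.27 in tumor 2 to 3.96 in tumor 5, and the Ezh1 row from -1.79 in tumor 3 to -1.10 in tumor 7.

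Tumor 7, which had the smallest Ezh1 difference, also held the highest leukocyte sum of the tumors (11179, the other 6 tumors 325 to 3030), the lowest neuroendocrine sum (33542) and the highest cardiac muscle sum (25648, against 123 to 1584 in the other tumors and 179 to 3397 in normal lung). Of 4 measured cardiac markers none passed the test between tumor and normal lung. Without tumor 7 the counts were the same, with 7 PRC2 genes higher and 1 lower. Its own difference from the other tumors was not tested.

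Distances between tumors with and without a shared title number overlapped. Over the 10 genes, the mean absolute log2 difference was 0.389 (0.227 to 0.582) for the 4 pairs with a shared number and 0.428 (0.227 to 0.639) for the 17 other pairs. Tumors 5 and 6 were the closest pair with a shared number, and tumors 5 and 7 the most distant one.

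Between the 2 trachea-titled and 4 lung-titled tumors, 0 PRC2 genes were called by limma, 0 also at an unadjusted p under 0.05 (1 without tumor 1, 4 or 6), and 0.0% of 23282 genes tested were called (2086 at an unadjusted p under 0.05). Phf19 differed by -0.70 (95% interval -1.42 to 0.02, adjusted p = 0.568), which became -1.06 without tumor 1 and -0.34 without tumor 7. Ezh2 differed by -0.46 (95% interval -1.03 to 0.12, adjusted p = 0.625). These intervals leave room for differences of more than a log2 unit, and tumor 7 is 1 of the 2 trachea-titled tumors.

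Other PRC2 accessory genes were also higher. Of 5 listed, 3 were tested and 3 were called higher, against 31.4% of all tested genes, with a median log2 fold change of 2.09. Lcorl, one of a pair of related genes that encode PRC2.1 subunits, went from 383 ± 59.5 to 2352 ± 695 normalized counts (log2 fold change 2.57, adjusted p = 3.31e-07). Epop, a PRC2.1 subunit, went from 333 ± 65.8 to 1668 ± 1078 (2.09, adjusted p = 3.77e-04). Phf1, the remaining Polycomb-like gene, was near 0 in normal lung and at 0 in all tumors in this table, under the minimum mean of 1, and was not tested. Its span overlaps other listed genes. Ezhip was not analysed here. Lcorl overlaps Ncapg, so its count is uncertain.

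Among enzymes that erase the mark and PRC1 proteins that read it, 3 of 6 tested genes were higher, 1 was lower and 2 were not called, against 31.4% higher and 30.1% lower of all tested genes. Counts among 6 genes do not set the list apart from these shares. Cbx2, a reader, went from 227 ± 30.4 to 2787 ± 753 normalized counts (log2 fold change 3.57, adjusted p = 1.39e-08). Cbx7, another reader, went from 3121 ± 418 to 1588 ± 332 (-0.99, adjusted p = 1.24e-04). The demethylase Kdm6a passed at 0.64 (adjusted p = 0.0111), while Kdm6b at 0.67 did not (adjusted p = 0.0593). Kdm6a stood at 820 normalized counts in normal lung 3, whose summed Y-linked level was 0, and at 456 to 507 in the other normal lungs. It was 681 in tumor 1, whose summed Y-linked level was 2536, and 614 to 1186 in the other tumors. The part of the Y-linked level in the Kdm6a difference was not tested separately. The count of higher genes was 1 with the Y-linked covariate and 4 with quantile normalization or equal totals. It was 2 in several further settings, such as without normal lung 2 or without normal lung 3.

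Hox genes, long-known targets of Polycomb, gave no common direction. The table held 23 of them, of which 15 were tested. Among those, 1 was higher, 4 were lower and 10 were not called, against 31.4% higher and 30.1% lower of all tested genes. Their median log2 fold change was -0.48. Hoxa7 had the largest fall, from 286 ± 96.5 to 18.7 ± 26.99 normalized counts (-4.81, adjusted p = 1.73e-04). The higher gene, Hoxd13, stood at 0.282 ± 0.631 and 2.63 ± 2.54 normalized counts, within a few reads (adjusted p = 0.0479). No Hox gene was higher without any one of normal lungs 1, 2, 3 or 5 or tumors 2, 3, 4 or 5, with same-numbered tumors averaged or kept as correlated, with quantile normalization, with a minimum mean of 10 or with the Y-linked covariate. DESeq2 called 3 Hox genes higher and 2 lower, which turns the balance of the counts. The summed Hox level was 1271 to 1708 in normal lung but 158 to 34398 in tumors, highest in tumor 2 and next in tumor 5 (11068). These high sums came mostly from a few Hoxb genes, none of them called. Tumor 2 held Hoxb8 at 16440, Hoxb9 at 10807, Hoxb4 at 3470 and Hoxb7 at 3021 normalized counts. Tumor 5 held Hoxb8 at 6523 and Hoxb4 at 2473. Tumor 2 had the lowest Ezh2 of the tumors and tumor 5 the highest, and a relation between Ezh2 and Hox levels was not tested.

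Of 10 genes described as repressed through EZH2 in small cell lung carcinoma or related tumors, 4 were lower, 1 was higher and 5 were not called, with a median log2 fold change of -1.06. The lower count is near the background share of 30.1% of tested genes. Tgfbr2, a receptor of TGF-beta, went from 8811 ± 205 to 903 ± 776 normalized counts (-3.61, adjusted p = 3.99e-06). The cell cycle inhibitor Cdkn2a went the other way, from 42.3 ± 12.2 to 2054 ± 451 (5.59), while its neighbour Cdkn2b fell by 2.91 on the log2 scale. The other lower genes were H2-K1 and H2-D1, class I antigen-presenting molecules whose near-identical relatives can share reads. Without tumor 7, which had the highest leukocyte sum of the tumors, 8 genes of the list were lower. The count was also 8 without the trachea-titled tumors and with the Y-linked covariate, and 7 with same-numbered tumors averaged. Leukocytes and endothelium express several of these genes, and their markers were lower in tumor as given above. The part of this in the counts was not tested.

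Proliferation genes were higher without exception, 17 of 17 against 31.4% of all tested genes, with a median log2 fold change of 3.83. They ran from Pcna, the replication clamp (2.30), to Cdk1, the kinase that starts mitosis (5.68). Ezh2 and Phf19 lie inside this range, and the other 5 higher PRC2 genes lie below it. Within the groups (log2 values centred by group), the median Pearson r of a PRC2 gene with these 17 genes ran from -0.64 (Ezh1) to 0.60 (Suz12). It was 0.31 for Ezh2 and 0.34 for Phf19, given as a description only.

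**Figure D4:**
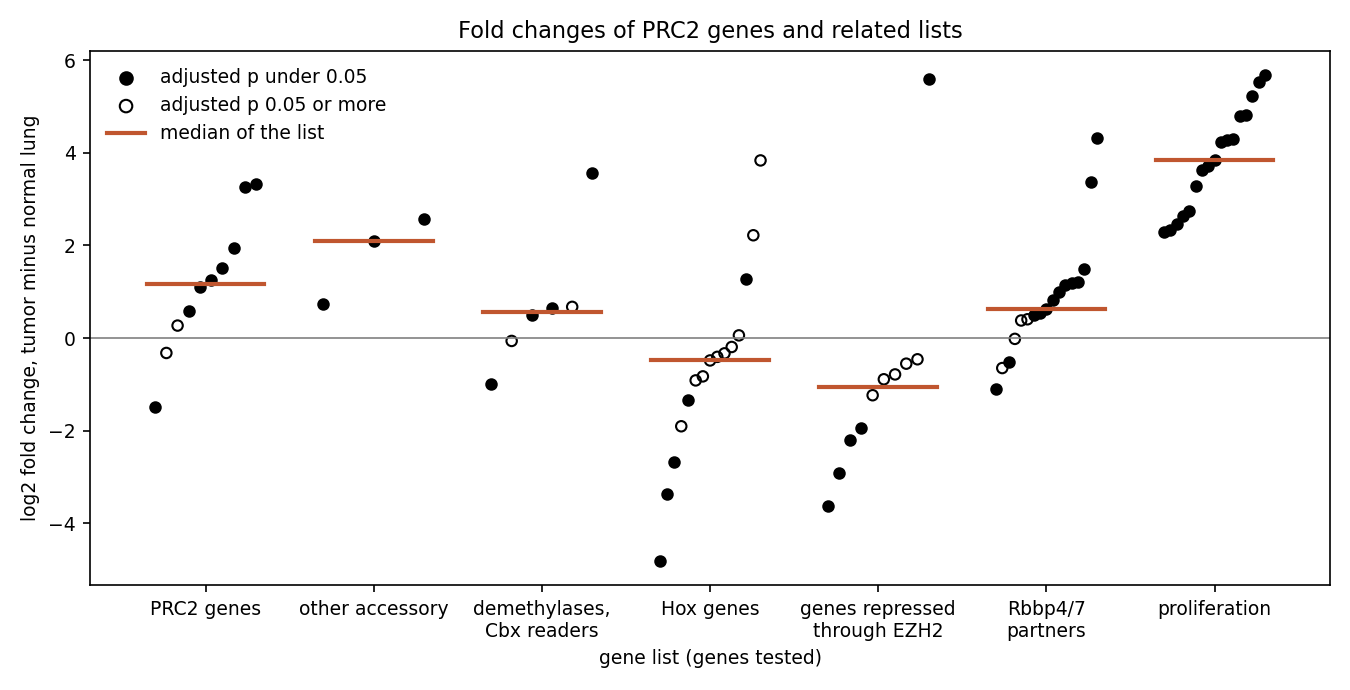
Log2 fold change of each tested gene, tumor minus normal lung, by gene list, with filled circles for adjusted p under 0.05, open circles for the rest and a bar at the list's median. The median is 1.18 for the PRC2 genes and 3.83 for the proliferation genes.

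Whether counting used the strand is not given in the sources used here, and exons of 4 PRC2 genes overlap a gene on the opposite strand: Eed with E230029C05Rik (6.82% of its exon bases), Mtf2 with Tmed5 (6.93%), Rbbp4 with Sync (8.94%) and Rbbp7 with Txlng (5.98%). Reads in these stretches cannot be assigned with certainty. Ezh1, Ezh2, Suz12, Jarid2, Aebp2 and Phf19 share no exon bases with another listed gene.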

How the data were processed

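Poly-A RNA from 5 normal lungs and 7 tumors was sequenced as paired reads, per the labels' protocols. The submitters' processing notes name featureCounts, DESeq2 and GRCm39. The aligner, annotation and strand setting are not given in the sources used here. The deposited values are a normalized count signal: in each column all values were whole multiples of the smallest step (tolerance 0.01 reads), whose reciprocal matched a median-of-ratios size factor. Symbols and exon lengths came from GENCODE M21, which named 29982 of 30399 identifiers.

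For the 23674 genes whose mean reached 1, limma 3.58.1 in R 4.3.3 (lmFit, eBayes with trend) was applied to log2(value + 1), with Benjamini-Hochberg adjustment. Fold changes on this scale understate those of low genes. Replicate numbers follow listing order. Count tests (edgeR 4.0.16, DESeq2 1.42.0) served as alternatives on recovered reads of 11 samples, leaving out tumor 3. A separate check did not accept the whole reads of tumor 3, although its column met the step test above like the others. The fit was also run on simulated counts, drawn independently and with a small part of the genes changed, unlike these data. No call given here rests on that run.

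All 10 PRC2 genes are described, with at most 4 genes per further list (the largest rise and fall past the threshold, and genes needed as background). A few named beyond these to account for a small count (Sap18, Kdm6a, Kdm6b, Cdkn2b, H2-K1, H2-D1) were chosen after their values were seen. One leukocyte marker is not reported here. Members and lists were chosen with earlier results of these data known. Alternatives covered the pseudocount, low-value filters, scaling, tumors with shared numbers, left-out samples, a Y-linked covariate and count tests. Reads are not independent molecules, so floors cover counting error only.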

Additional observations from a re-analysis of the deposited data

How the results depend on the processing

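Over 24 alternatives, 238 of 240 fold changes of the 10 PRC2 genes kept their direction and their side of the threshold. The exceptions were Eed with the Y-linked covariate (0.45) and Aebp2 with equal totals (0.48). The count of higher PRC2 genes ran from 6 to 8, and the lower count was 1 in every alternative run. Leaving out each sample in turn kept 7 higher and 1 lower. The count of genes called between trachea-titled and lung-titled tumors ran from 0 to 290 when each tumor was left out in turn. The 290 arose without tumor 7, with 1 trachea-titled sample assumed to vary like the others, and none was a PRC2 gene. The log2 ratio of Ezh2 to Ezh1 was -3.40 in normal lung and 1.35 in tumors without division by length, against -3.24 and 1.51 with it. No paired analysis was possible because replicate numbers follow listing order and no title number is shared between tumor and normal lung.

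Read depth did not limit the 10 genes, whose lowest normalized count was 98.7. It limits the low Hox genes. The tumors carry 4 distinct title numbers. If these stand for mice, the tumors are fewer independent samples than counted; averaging or correlating same-numbered tumors changed no call of the 10 genes.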

Other observations

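The genes whose levels followed Ezh2 most closely within the groups were Ccdc88a (r = 0.94), Zfp385b (0.93), Gm48228 (0.92), Zfp532 (0.91) and Zfp608 (0.91). For Ezh1 they were Slc7a10 (0.95), S1pr4 (0.95), Swap70 (0.95), Fmo1 (0.94) and Stx11 (0.94). These are Pearson correlations of log2 values after centring each group, over 12 samples and 13458 genes with a mean log2 value of at least 6, given as a description only. The samples share their libraries, depth and tissue makeup across genes. All 5 genes that followed Ezh1 were lower in tumor, against 30.1% of all tested genes, with log2 fold changes from -6.65 (Fmo1) to -3.89 (Swap70). Tumor 7 had the highest Ezh1 of the tumors and also their highest leukocyte sum (11179, the other tumors 325 to 3030). The part of this sample in the correlations with Ezh1 was not tested. Of the 5 that followed Ezh2, Ccdc88a was higher (2.61), Zfp608 lower (-0.82) and 3 were not called.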
